A study of Homo sapiens with 15 samples.

Results

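The intracellular domain of NOTCH3 (NICD3) was set directly against that of NOTCH2 (NICD2), each induced with doxycycline in cultured cells, with 3 RNA-seq libraries in each group. These 6 libraries, chosen by their labels, are part of a series of 15 in which 3 further libraries came from cells with an empty vector (EV). The others are labelled NICD1 or NICD4, for the NOTCH1 and NOTCH4 domains, and all 15 enter the estimate of spread. EV levels are quoted here for orientation. The series asks how gene expression responds to each activated NOTCH receptor, and this comparison asks which genes differ between the NOTCH3 and NOTCH2 forms. The cell line is labelled HCT116, which is a line of colorectal carcinoma, but descriptions and column names carry U373, the name of a glioma line. They give no doxycycline dose or duration and do not say whether EV cells received the drug. They also leave unsaid which residues the NICD constructs span, whether each line is a single clone and whether the replicates are separate cultures. The p-values below are therefore set by how far libraries of a group differ, and that spread may be only technical. The genotype label of NICD3 replicate 1 reads "NICD23expression", while its title, source and column give NICD3. Throughout, NICD3 and NICD2 libraries are those labelled so.

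NOTCH receptors are single-pass membrane proteins that are cut by gamma-secretase after a ligand of the Jagged or Delta family on a neighbouring cell pulls on them. The freed intracellular domain enters the nucleus, binds the DNA-binding protein RBPJ and recruits Mastermind coactivators, which switches on genes such as the HES and HEY repressors and the feedback inhibitor NRARP. In the intestinal epithelium this pathway keeps progenitors dividing and steers cells away from the secretory fate.

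The classical RBPJ site holds the letters GTGGGAA. Promoters of 3 target genes are shown because these genes carry the main NOTCH readout below, and the letters GTGGGAA are in capitals where they occur on either strand. Sequences are from RefSeq on GRCh38.p14, run 5′ to 3′ on the gene's strand and span 250 bases before to 50 bases after the annotated start. All 3 symbols matched an entry.
HES1, chr3:194135898-194136197, plus strand: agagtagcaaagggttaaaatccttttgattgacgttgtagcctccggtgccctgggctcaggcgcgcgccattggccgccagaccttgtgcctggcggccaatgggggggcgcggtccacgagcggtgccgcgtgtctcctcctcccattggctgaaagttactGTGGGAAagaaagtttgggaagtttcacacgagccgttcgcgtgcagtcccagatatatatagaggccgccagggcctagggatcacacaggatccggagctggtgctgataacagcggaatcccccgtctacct
HES4, chr1:1000048-1000347, minus strand: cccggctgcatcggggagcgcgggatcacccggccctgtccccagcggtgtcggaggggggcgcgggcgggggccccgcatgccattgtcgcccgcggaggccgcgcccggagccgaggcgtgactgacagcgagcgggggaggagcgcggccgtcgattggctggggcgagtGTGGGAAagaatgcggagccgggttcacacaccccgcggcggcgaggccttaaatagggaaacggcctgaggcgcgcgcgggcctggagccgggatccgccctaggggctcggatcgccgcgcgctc
NRARP, chr9:137302222-137302521, minus strand: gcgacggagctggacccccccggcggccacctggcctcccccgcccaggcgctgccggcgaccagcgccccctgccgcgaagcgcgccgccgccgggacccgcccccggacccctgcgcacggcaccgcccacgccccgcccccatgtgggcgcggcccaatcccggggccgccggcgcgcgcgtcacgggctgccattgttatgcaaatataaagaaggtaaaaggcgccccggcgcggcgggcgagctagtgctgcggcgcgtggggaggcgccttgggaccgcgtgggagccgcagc
The motif begins 85 bases before the start of HES1 and 77 bases before that of HES4, and the NRARP window holds no match. Of 35116 promoter windows of the same length in the table, 2194 (6.25%) hold the motif. A match describes the letters and shows no binding.

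Of the genes of the introduced domains, NOTCH2 was higher in the NICD2 libraries, and no difference was detected for NOTCH3. NOTCH3 stood at 11.5, 11.9 and 11.6 CPM in the NICD3 libraries, against 12.8, 9.93 and 13.1 CPM in the NICD2 libraries, and EV averaged 10.4 ± 0.815 CPM (SD, n = 3). The groups overlapped, with a log2 difference of -0.02 ± 0.11 (SE; 95% interval -0.26 to 0.22; adjusted p = 0.922). NOTCH2 stood at 29.7, 32.2 and 30.1 CPM in the NICD3 libraries, against 42.3, 40.2 and 42.8 CPM in the NICD2 libraries, and EV averaged 31.2 ± 1.44 CPM. The NICD2 libraries were all above the NICD3 libraries, by a log2 difference (NICD3 minus NICD2) of -0.45 ± 0.07 (adjusted p = 0.000433). A higher NOTCH3 count in the NICD3 libraries was thus not detected, and it is not stated whether reads from the introduced sequences could map to the human genes, so NOTCH3 does not check the label NICD3. Levels are CPM, read counts relative to the library total after scaling by a trimmed-mean (TMM) factor, and they are not divided by gene length. Differences are log2 values ± SE from limma, with p adjusted by the Benjamini-Hochberg method over the 15122 genes tested, and a gene is called at an adjusted p under 0.05.

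Several library properties differed along with the labels. The libraries held 17867229 to 27704492 counted reads in NICD3 and 14673469 to 22785395 in NICD2. Genes with transcripts of at least 58% GC, relative to those of at most 42% GC, lay -0.03 to 0.28 log2 units from the mean of all libraries in NICD3 and -0.49 to -0.16 in NICD2, without overlap. In the EV libraries this value was lower still, at -1.06 to -0.81. The share of reads on ribosomal protein genes was 15.7% to 17.5% in NICD3 and 12.3% to 14.2% in NICD2, and that on mitochondrially encoded genes 2.78% to 3.91% in NICD3 and 3.96% to 4.15% in NICD2. The part of these properties in each result was not tested, but every difference was also computed with the GC trend removed. NICD2 replicates 1 and 3 resembled each other closely, with a chi-square of 1.31 per gene, and NICD3 replicates 2 and 3 had 2.53, against 14.9 to 22.2 for the other pairs within these groups. Sampling alone gives about 1 per gene, and amplified reads are not independent. The value of 1.31 therefore cannot tell whether NICD2 replicates 1 and 3 are separate cultures. They were kept as separate libraries in the main fit, and an added fit with them summed is among the alternatives. That fit called 918 genes higher and 675 lower. Of the cell identity markers, EPCAM averaged 231 ± 20.8 CPM in NICD3 and 280.4 ± 26.03 CPM in NICD2 and the intestinal factor CDX2 40.9 CPM in NICD3 and 37.7 CPM in NICD2. The glial markers SOX2, OLIG2 and AQP4 had no read in the 6 libraries, and neither had the intestinal markers CDX1 and TFF3. Other genes of the astrocyte and glioma list were detected, such as NES at 22.7 CPM in NICD3 and 21.97 CPM in NICD2, and 9 passed the filter. The 20 colorectal epithelial markers, 14 of them above the filter and 2 without a read, summed to 18755 to 23577 CPM in NICD3, 9840 to 11539 in NICD2 and 2203 to 2783 in EV, mostly from KRT8 and KRT18. In bulk RNA, a change in the number of cells of a type and a change in RNA per cell cannot be told apart.

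In all, 1245 genes (8.23% of 15122) were higher in NICD3 than in NICD2 and 1028 (6.8%) were lower, together 2273 (15%). Changes of at least 2-fold were fewer, with 294 genes higher (1.94%) and 166 lower (1.1%). Of the 2273, 1163 differed by under 1.5-fold and 100 by over 4-fold. The median difference over all genes tested was -0.02, and the values of the groups did not overlap for 6644 genes (43.9%). Against the EV mean, 698 of the 1245 higher genes (56.1%) were above EV in both groups and 241 (19.4%) were below EV in both. Of the 1028 lower genes, 546 (53.1%) were below EV in both groups and 216 (21%) were above EV in both. These shares were not computed over all genes tested, so they cannot be read as particular to the called genes. With library totals in place of TMM factors, 829 genes were higher and 1494 lower and the median over all genes was -0.15. Without NICD3 replicate 1 the counts were 680 higher and 522 lower, and without NICD2 replicate 2 they were 702 and 510. The count of lower genes was also 681 without NICD3 replicate 2 and 683 without NICD2 replicate 1. Of the 2273 called genes, 873 (38.4%) were called under each of the 18 alternatives, and of the 460 that differed at least 2-fold, 333 (72.4%). Except for NOTCH1, ID2, MEIOSIN and ENO2, each called gene described below was among these 873, leaving aside neighbours named only because they overlap one.

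**Figure D1:**
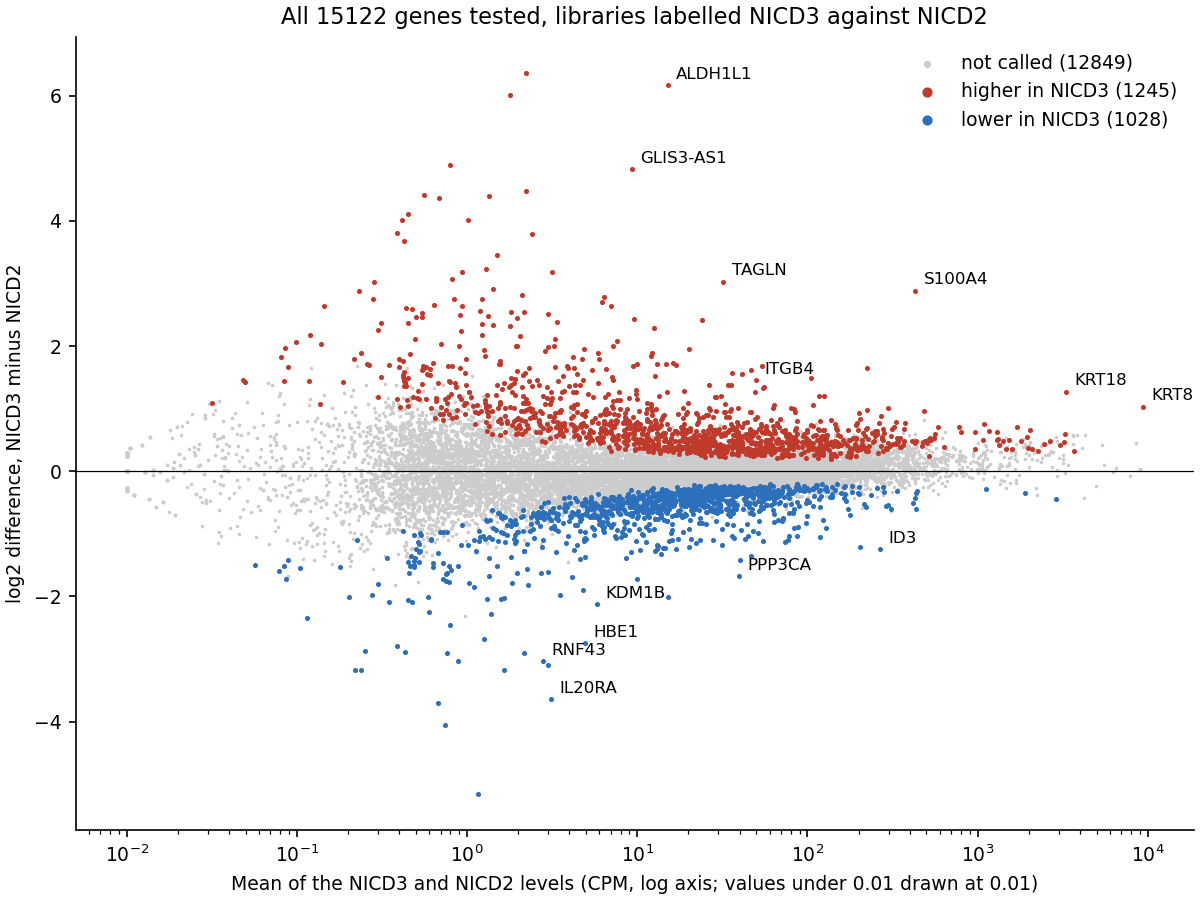
Difference between NICD3 and NICD2 libraries for the 15122 genes tested (vertical axis, log2) against the mean level of both groups (horizontal axis, CPM, log scale), with each point 1 gene. The 1245 genes called higher and 1028 called lower are coloured, and the keratins KRT8 and KRT18 lie at the far right, above 0.

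Among the direct readouts of NOTCH, HES1 and NRARP were the clear differences, and both were lower in NICD3. HES1, the repressor that blocks neuronal and secretory differentiation genes (chr3:193853934-193856521 on GRCh37), stood at 45.7, 51.2 and 49.2 CPM in the NICD3 libraries, against 107, 101 and 107 CPM in the NICD2 libraries. All NICD3 values lay under all NICD2 values, and the EV mean of 19.4 ± 0.631 CPM was below both groups. The log2 difference was -1.11 ± 0.08 (adjusted p = 4.09e-07), or 2.15-fold less in NICD3. NRARP, a small ankyrin protein that binds the NICD complex and limits it (chr9:140194083-140196703), stood at 45.6, 46.2 and 46.9 CPM in the NICD3 libraries, against 103, 99.5 and 102 CPM in the NICD2 libraries, with an EV mean of 26.5 ± 0.914 CPM. Its difference of -1.13 ± 0.07 (adjusted p = 5.56e-08) was within 1 SE of that of HES1. GTGGGAA occurs in the printed HES1 window and not in that of NRARP. HES4, whose window does hold the motif, stood at 139.9, 123 and 127 CPM in the NICD3 libraries, against 188, 135 and 177 CPM in the NICD2 libraries. These groups overlapped (difference -0.35 ± 0.17, adjusted p = 0.173), yet both were above the EV mean of 23.7 ± 5.20 CPM. With the GC trend removed, HES4 passed the threshold at -0.69 (adjusted p = 2.89e-05), as did HES6 at -0.40 (0.00124), against -0.12 (0.491) without that step. Of the 7 tested members of the HES and HEY repressors with NRARP, 2 were lower (28.6%, against 6.8% of all genes tested). With the GC trend removed 5 were lower, and with library totals 4. For higher members, limma with or without voom weights gave a count of 0, and 0 passed an unadjusted p of 0.05. The list's median was -0.28. HEYL, a related repressor, averaged 26.7 ± 2.57 CPM in NICD3 and 25.2 ± 1.23 CPM in NICD2 (SD, n = 3 each; difference 0.08 ± 0.11, adjusted p = 0.636), and its sign turned with library totals or with the GC trend removed.

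**Figure D2:**
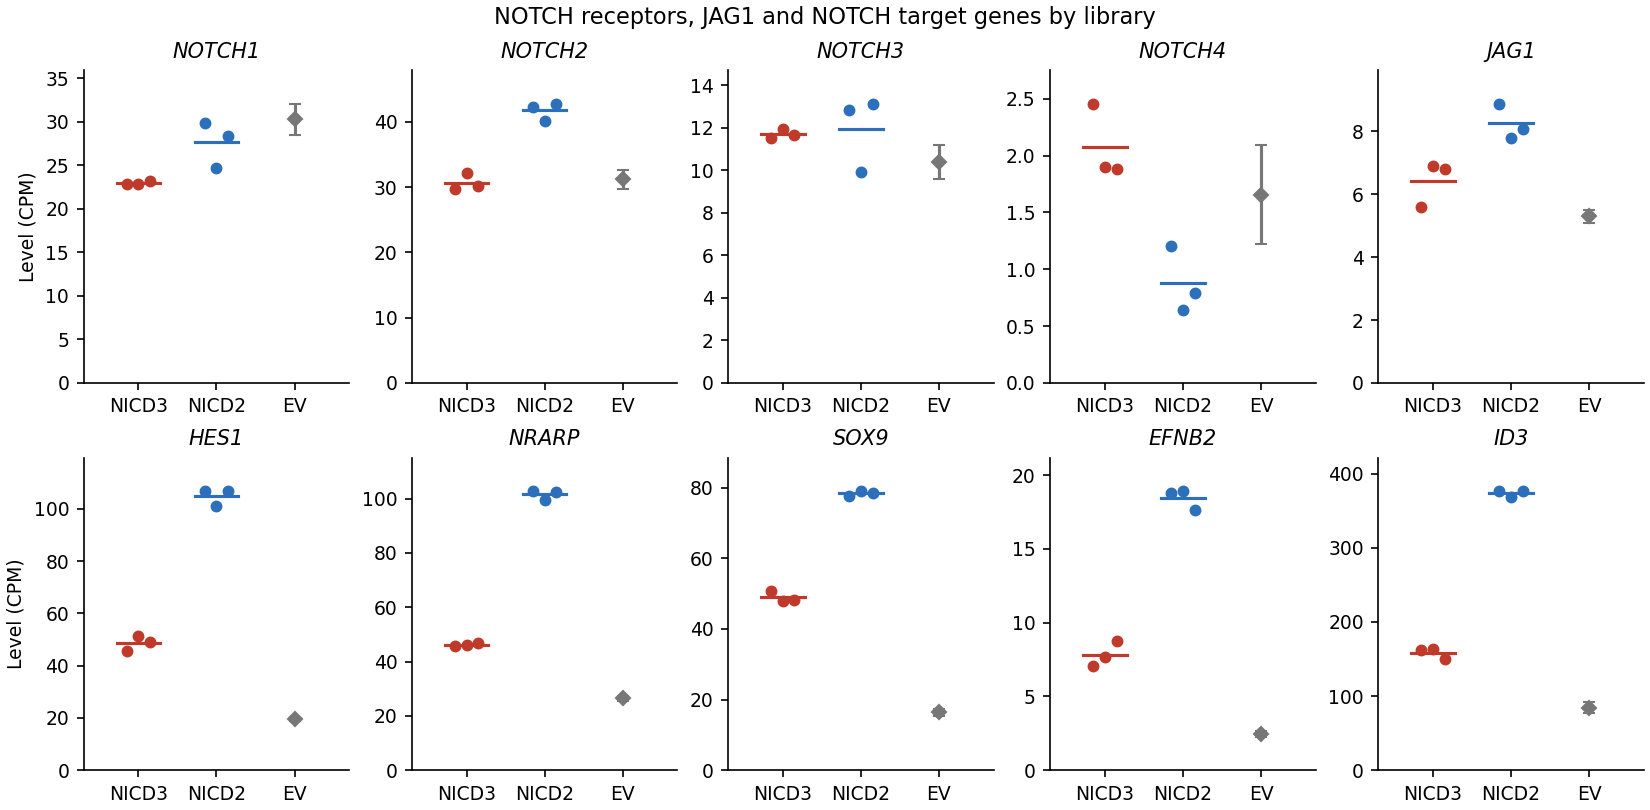
Levels (CPM, vertical axis from 0) of the 4 NOTCH receptor genes, JAG1 and 5 reported target genes in each NICD3 library (red) and NICD2 library (blue). Horizontal lines are group means and grey diamonds the EV mean ± SD over 3 libraries. For HES1, NRARP, SOX9, EFNB2 and ID3 every NICD3 library lies between EV and the NICD2 libraries.

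The target genes outside the HES family were divided. Of 27 tested members of the list of other reported NOTCH targets, 6 were higher (22.2%) and 8 lower (29.6%), with a median of 0.18. Between 4 and 5 were lower without any library but NICD2 replicate 2. SOX9, which marks intestinal progenitors, stood at 50.8, 47.9 and 48.3 CPM in the NICD3 libraries, against 77.7, 79.05 and 78.5 CPM in the NICD2 libraries, a difference of -0.68 ± 0.07 (adjusted p = 1.8e-05). The gene of the ephrin ligand EFNB2, an arterial target of NOTCH, stood at 7.05, 7.66 and 8.77 CPM in the NICD3 libraries, against 18.8, 18.9 and 17.6 CPM in the NICD2 libraries (-1.24 ± 0.12, adjusted p = 6.95e-06). ID3, an inhibitor of basic helix-loop-helix factors, stood at 162, 164 and 149 CPM in the NICD3 libraries, against 376, 368 and 377 CPM in the NICD2 libraries (-1.24 ± 0.14, adjusted p = 2.86e-05). In each of these 3 genes the NICD3 libraries stood between the EV mean and the NICD2 libraries, with EV at 16.4 ± 0.978, 2.44 ± 0.182 and 84.4 ± 6.92 CPM. Its relative ID2 stood at 1.83, 1.72 and 1.69 CPM in the NICD3 libraries, against 3.34, 4.20 and 3.95 CPM in the NICD2 libraries (-1.10 ± 0.27, adjusted p = 0.0141), and this call was lost without NICD2 replicate 2 (adjusted p = 0.0598). The targets on the other side were higher in NICD3. PLAU, the urokinase plasminogen activator, stood at 121, 120.4 and 123 CPM in the NICD3 libraries, against 72.2, 83.97 and 74.8 CPM in the NICD2 libraries (0.66 ± 0.09, adjusted p = 0.000177). CCND1, which encodes cyclin D1, stood at 342, 334 and 345 CPM in the NICD3 libraries, against 207, 219.9 and 213 CPM in the NICD2 libraries (0.68 ± 0.07, adjusted p = 1.34e-05). The hyaluronan receptor gene CD44 (0.94 ± 0.09) and the CDK inhibitor gene CDKN1A (0.51 ± 0.09) were higher as well. Thus in the 8 targets called under every alternative, 4 were higher and 4 lower.

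Of the 8 tested ligand and fringe genes, DLK2 alone was called (12.5%), and it was higher. With the GC trend removed, 3 of the 8 were also lower. JAG1, a ligand gene, stood at 5.60, 6.89 and 6.82 CPM in the NICD3 libraries, against 8.88, 7.79 and 8.09 CPM in the NICD2 libraries, and the difference of -0.36 ± 0.12 missed the threshold (adjusted p = 0.0532). It passed at 0.0491 with the GC trend removed, 0.0285 with library totals and 0.0486 with a constant prior. JAG2 averaged 124 ± 2.39 CPM in NICD3 and 128 ± 3.03 CPM in NICD2 (difference -0.05 ± 0.08, 95% interval -0.21 to 0.12), but passed the threshold at -0.27 after GC trend removal (adjusted p = 0.0301). LFNG, a fringe enzyme that adds sugar to NOTCH and tunes which ligand it answers, averaged 5.74 ± 0.394 CPM in NICD3 and 7.96 ± 0.817 CPM in NICD2 (SD, n = 3 each; adjusted p = 0.118, 0.00392 with the GC trend removed, 0.0273 with library totals and 0.0275 with 6 libraries alone). DLK2, a Delta-like protein without the receptor-activating domain, was higher at 8.94, 9.74 and 9.25 CPM in NICD3, against 6.21, 5.93 and 6.51 CPM in NICD2 (0.58 ± 0.12, adjusted p = 0.00371). NOTCH1 stood at 22.9, 22.8 and 23.2 CPM in the NICD3 libraries, against 29.9, 24.7 and 28.4 CPM in the NICD2 libraries (-0.26 ± 0.08, adjusted p = 0.0436), a call that was lost when any 1 library but NICD2 replicate 2 was left out (adjusted p 0.0840 to 0.156). It was kept at 0.0199 without that library and lost with median-of-ratios scaling, no filter, 6 libraries alone, a constant prior, the replicate block or NICD2 replicates 1 and 3 summed (0.0559 to 0.152). It was larger, at -0.47, with the GC trend removed (adjusted p = 0.00288) and at -0.40 with library totals (0.0146). NOTCH4, which overlaps GPSM3, stood at 2.46, 1.90 and 1.88 CPM in the NICD3 libraries, against 1.20, 0.646 and 0.789 CPM in the NICD2 libraries (1.23 ± 0.25, adjusted p = 0.00398). Of the 42 tested genes of the pathway machinery (proteases, RBPJ cofactors and ubiquitin ligases), 3 were higher (7.1%) and 4 lower (9.5%). Over all genes tested the shares were 8.23% and 6.8%. None of these 7 calls held in every alternative.

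The 20 largest rises among genes of sufficient level were led by ALDH1L1, a folate enzyme used as an astrocyte marker (chr3:125822412-125916837). It stood at 27.8, 31.9 and 30.2 CPM in the NICD3 libraries, against 0.334, 0.323 and 0.444 CPM in the NICD2 libraries, and EV averaged 1.51 ± 0.249 CPM. Its difference was 6.16 ± 0.25 on the log2 scale (adjusted p = 1.58e-09), and it was the only gene with at least 5 CPM in every NICD3 library and under 0.5 CPM in every NICD2 library. GLIS3-AS1, the antisense RNA at the GLIS3 gene, stood at 20.96, 15.8 and 17.2 CPM in the NICD3 libraries, against 0.734, 0.484 and 0.543 CPM in the NICD2 libraries (4.82 ± 0.22). GLIS3 itself, a Krüppel-like zinc finger factor, stood at 10.95, 12.1 and 13.2 CPM in the NICD3 libraries, against 2.14, 1.61 and 1.92 CPM in the NICD2 libraries (2.65 ± 0.19). Both were near 0 in EV, at 0.0128 ± 0.0221 and 0.0739 ± 0.0363 CPM. The annotated spans of these genes overlap, and kits of this generation do not mark strand. Reads from any exon stretch they share cannot be told apart, and whether their exons overlap was not examined. TAGLN, the actin-binding protein transgelin, stood at 52.6, 55.95 and 63.4 CPM in the NICD3 libraries, against 6.41, 7.55 and 6.95 CPM in the NICD2 libraries (3.03 ± 0.20). The NICD3 libraries lay around the EV mean of 54.4 ± 5.89 CPM, and the NICD2 libraries were the low ones. S100A4, a calcium-binding protein of motile cells, stood at 923, 686 and 671 CPM in the NICD3 libraries, against 111, 78.8 and 120.2 CPM in the NICD2 libraries (2.89 ± 0.21, adjusted p = 4.65e-07), with EV at 181 ± 40.2 CPM. TNFSF4, which encodes OX40 ligand, stood at 9.82, 12.4 and 11.3 CPM in the NICD3 libraries, against 1.60, 1.41 and 1.68 CPM in the NICD2 libraries (2.79 ± 0.14), and both groups were under the EV mean of 39.3 ± 3.77 CPM.

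The other 14 of these 20 rises ranged from 1.92 to 2.70 on the log2 scale. The ranking takes genes with a mean log2 CPM of at least 1 over the 6 libraries, so KRT23 (3.46) and EHF (2.81), which are lower in level, are not among them. They hold 3 epithelial structural genes, namely the connexin gene GJB5, KRT5 and the hair keratin gene KRT34. Further members encode secreted or surface proteins, among them the placental alkaline phosphatase ALPP (46.02, 37.9 and 37.6 CPM in NICD3, against 7.74, 6.13 and 8.88 CPM in NICD2), the plasmin inhibitor SERPINF2, the protease KLK6 (22.7, 19.8 and 19.9 CPM in NICD3, against 4.14, 3.71 and 4.93 CPM in NICD2), FNDC4 and the tetraspanin-like TM4SF1. TM4SF1 stood at 12.5, 10.8 and 11.6 CPM in the NICD3 libraries, against 2.60, 3.39 and 2.66 CPM in the NICD2 libraries, and EV averaged 0.631 ± 0.123 CPM. The planar polarity effector FUZ stood at 15.6, 16.5 and 16.1 CPM in the NICD3 libraries, against 3.34, 2.50 and 3.06 CPM in the NICD2 libraries, with EV at 2.93 ± 0.355 CPM. The remaining members were the cytidine deaminase gene APOBEC3H, S100A5, the fibroblast growth factor homologue FGF13, synuclein gamma (SNCG) and the troponin gene TNNC2. ALPP has near-identical paralogues, so its reads may be split or dropped. GJB5, FUZ and TAGLN overlap expressed neighbours, of which PCSK7, beside TAGLN, was itself higher (0.67, adjusted p = 8.92e-05).

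**Figure D3:**
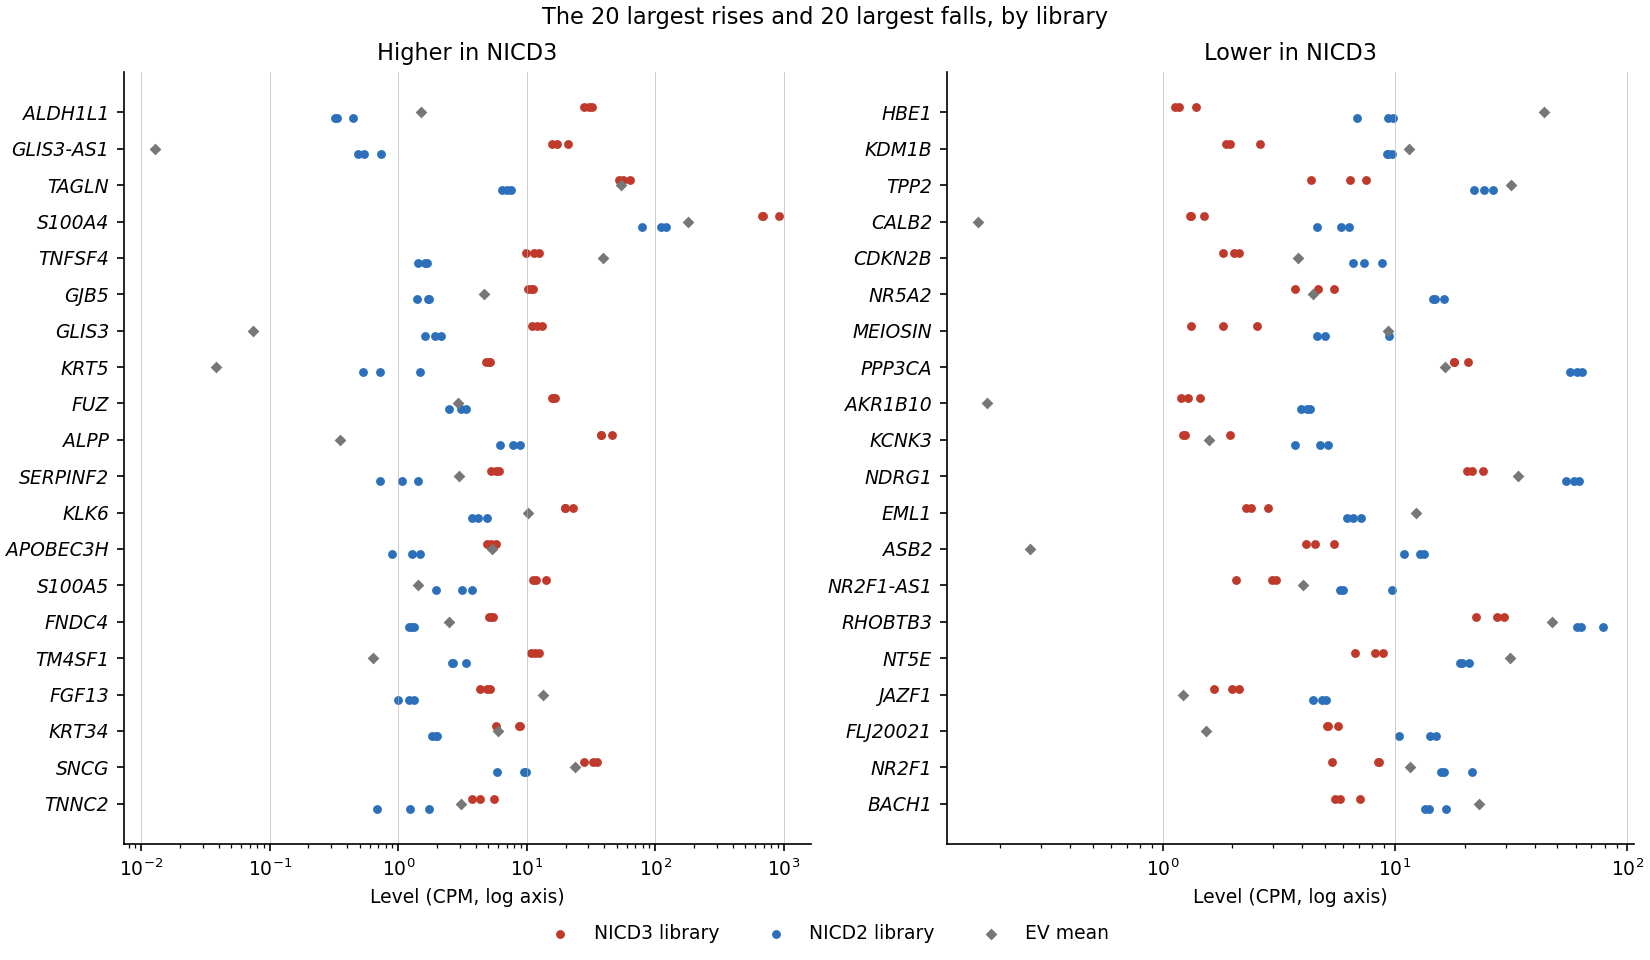
Level (CPM, log axis) in each NICD3 library (red) and NICD2 library (blue) for the 20 largest rises (left) and 20 largest falls (right) among genes of sufficient level, with the EV mean as a grey diamond. The groups do not overlap for any of these genes, which the choice of genes required, and the EV mean lies on varying sides of them.

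The 20 largest falls ranged from -2.75 to -1.26 on the log2 scale, against 1.92 to 6.16 for the 20 largest rises. IL20RA, a receptor chain for interleukins 20 and 24 (chr6:137321108-137366298), stood at 0.441, 0.362 and 0.442 CPM in the NICD3 libraries, against 5.14, 6.42 and 5.82 CPM in the NICD2 libraries (-3.64 ± 0.21, adjusted p = 5.56e-08), with EV at 1.81 ± 0.309 CPM. It was too low on average to enter these 20, but it was the only gene with at least 5 CPM in every NICD2 library and under 0.5 CPM in every NICD3 library. HBE1, the embryonic epsilon globin gene, stood at 1.13, 1.18 and 1.40 CPM in the NICD3 libraries, against 9.81, 6.90 and 9.32 CPM in the NICD2 libraries (-2.75 ± 0.15), and the EV mean of 43.8 ± 4.46 CPM was above both groups. KDM1B, a histone demethylase, stood at 1.95, 2.63 and 1.88 CPM in the NICD3 libraries, against 9.35, 9.72 and 9.22 CPM in the NICD2 libraries (-2.12 ± 0.15). The gene of the peptidase TPP2 stood at 4.34, 7.52 and 6.41 CPM in the NICD3 libraries, against 24.2, 26.5 and 21.9 CPM in the NICD2 libraries (-2.01 ± 0.22). For both, the EV means of 11.5 ± 0.829 and 31.5 ± 1.56 CPM were above all 6 libraries. PPP3CA, a catalytic subunit of calcineurin, stood at 18.01, 17.9 and 20.6 CPM in the NICD3 libraries, against 63.9, 56.9 and 60.6 CPM in the NICD2 libraries (-1.68 ± 0.10), with the NICD3 libraries a little above the EV mean of 16.5 ± 0.456 CPM. CDKN2B, which encodes the CDK4 and CDK6 inhibitor p15, stood at 2.14, 1.81 and 2.03 CPM in the NICD3 libraries, against 6.61, 8.80 and 7.40 CPM in the NICD2 libraries (-1.90 ± 0.16).

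The nuclear receptor genes NR5A2 (-1.73 ± 0.18) and NR2F1 (-1.28 ± 0.20) were lower, as was the overlapping NR2F1-AS1 (-1.37 ± 0.29). NR5A2, a regulator of bile acid and intestinal crypt genes, stood at 3.71, 5.48 and 4.68 CPM in NICD3, against 14.95, 16.3 and 14.6 CPM in NICD2. Calretinin (CALB2, -1.97 ± 0.21), the aldo-keto reductase AKR1B10 (-1.63 ± 0.22) and the ubiquitin ligase subunit ASB2 (-1.39 ± 0.29) were lower in NICD3 and near 0 in EV, at 0.160 ± 0.0395, 0.176 ± 0.0192 and 0.268 ± 0.178 CPM. ASB2 stood at 5.48, 4.53 and 4.13 CPM in NICD3, against 12.9, 10.98 and 13.3 CPM in NICD2. NDRG1, a stress and hypoxia-induced gene, stood at 23.9, 20.4 and 21.6 CPM in NICD3, against 59.01, 54.4 and 61.8 CPM in NICD2 (-1.41 ± 0.08). The remaining falls were KCNK3, EML1, RHOBTB3, NT5E (the ectonucleotidase CD73), JAZF1, BACH1, the non-coding FLJ20021, which overlaps PPP3CA, and MEIOSIN. They ranged from -1.69 to -1.26. MEIOSIN, named for its role in the entry into meiosis, lost its call without NICD3 replicate 1 (adjusted p = 0.0791) or NICD2 replicate 2 (0.0813). The annotated spans of HBE1, CDKN2B, RHOBTB3 and JAZF1 also overlap expressed neighbours, of which OR51B5 beside HBE1 was lower by a difference of -2.45 (adjusted p = 0.00639), GLRX beside RHOBTB3 by -0.61 and TAX1BP1 beside JAZF1 by -0.58.

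Among the genes with the most reads, keratins of simple epithelia were the main difference. KRT8 stood at 14933, 11517 and 11346 CPM in the NICD3 libraries, against 6525, 5333 and 6553 CPM in the NICD2 libraries (1.03 ± 0.17, adjusted p = 0.000896). Its partner KRT18 stood at 5114, 4525 and 4437 CPM in the NICD3 libraries, against 2018, 1827 and 1983 CPM in the NICD2 libraries (1.27 ± 0.10, adjusted p = 1.11e-06). Both groups were above the EV means of 1061 ± 144 and 392 ± 58.4 CPM. The annotated spans of KRT8 and KRT18 overlap, and both genes have many processed copies. Of 16 tested keratin genes 6 were higher (37.5%) and 1 lower (6.2%), with a median of 0.44, and all 7 calls held in every alternative. The hair keratin gene KRT34, given above, is not in this list. KRT23 stood at 2.71, 2.76 and 2.95 CPM in NICD3, against 0.267, 0.161 and 0.197 CPM in NICD2 (3.46 ± 0.38), and KRT20, a marker of mature colonocytes, at 1.32, 1.63 and 1.44 CPM in NICD3, against 0.267, 0.323 and 0.395 CPM in NICD2 (2.00 ± 0.29). The basal keratin gene KRT5 stood at 5.16, 5.12 and 4.83 CPM in NICD3, against 0.534, 0.726 and 1.48 CPM in NICD2 (2.52 ± 0.29), while KRT14, its usual partner, was lower at 0.567, 0.680 and 0.663 CPM in NICD3, against 1.67, 1.45 and 1.73 CPM in NICD2 (-1.27 ± 0.26). KRT80 was also higher (0.87 ± 0.11). The hair keratin-associated gene KRTAP3-1 stood at 377, 312 and 329 CPM in the NICD3 libraries, against 112, 97.00 and 114 CPM in the NICD2 libraries (1.65 ± 0.10).

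In the main fit, epithelial regulators were called in 1 direction and junction genes in both. Of 17 tested regulators 4 were higher (23.5%, against 8.23% of all genes tested). The list's median was 0.002, and 9 of the 17 differences were above 0. For lower members limma gave a count of 0, with voom weights as well, and 1 passed an unadjusted p of 0.05. That lower count was 1 with the GC trend removed. It was 0 to 1 with 1 library left out or NICD2 replicates 1 and 3 summed. EHF, an epithelial ETS factor, stood at 3.40, 3.81 and 3.83 CPM in NICD3, against 0.801, 0.444 and 0.296 CPM in NICD2 (2.81 ± 0.32, adjusted p = 3.29e-05), and its relative ELF3 at 34.8, 32.5 and 26.7 CPM in NICD3, against 18.2, 14.8 and 18.5 CPM in NICD2 (0.87 ± 0.15). The membrane protease matriptase (ST14) stood at 292, 269 and 256 CPM in NICD3, against 177, 162 and 174 CPM in NICD2 (0.67 ± 0.11). Of 30 junction genes, 5 were higher (16.7%) and 6 lower (20%). Higher were the claudin genes CLDN3 (0.99 ± 0.17) and CLDN6 (1.19 ± 0.12) and the connexin gene GJB2 (0.72 ± 0.12). Lower were the desmosomal DSP (-0.57 ± 0.07) and PERP (-0.67 ± 0.14) and the tight junction scaffolds TJP1 (-0.35 ± 0.08) and CGN (-0.53 ± 0.10). DSP, for example, stood at 100.1, 93.3 and 92.6 CPM in NICD3, against 144, 134 and 147 CPM in NICD2. The villus gene VIL1 was lower at 0.189, 0.272 and 0.221 CPM in NICD3, against 0.734, 0.686 and 0.839 CPM in NICD2 (-1.53 ± 0.30).

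Adhesion to the basement membrane differed by subunit. ITGB4, the integrin beta 4 subunit of hemidesmosomes, stood at 78.3, 73.4 and 67.2 CPM in the NICD3 libraries, against 27.1, 23.6 and 29.3 CPM in the NICD2 libraries (1.45 ± 0.12, adjusted p = 1.47e-06), and ITGA3, a laminin receptor subunit, was higher by 0.59 ± 0.06. Yet a laminin chain that such integrins bind was lower. LAMB3 stood at 11.7, 10.9 and 10.8 CPM in the NICD3 libraries, against 23.9, 22.3 and 24.6 CPM in the NICD2 libraries (-1.08 ± 0.13). LAMC1 was lower (-0.55 ± 0.08) and LAMB1 higher (0.96 ± 0.14). In this list of 18, 4 were higher and 4 lower (22.2% each, against 8.23% and 6.8% of all genes tested).

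Of 20 smooth muscle and pericyte genes, 3 were higher (15%), namely TAGLN, CNN1 and CSPG4, and 1 was lower (5%), TPM1. Over all genes tested the shares were 8.23% and 6.8%. Calponin 1 (CNN1) stood at 1.76, 1.99 and 1.58 CPM in NICD3, against 0.935, 0.726 and 0.691 CPM in NICD2 (1.14 ± 0.24), under the EV mean of 5.86 ± 0.683 CPM. The proteoglycan gene CSPG4 stood at 16.9, 15.3 and 14.3 CPM in NICD3, against 8.01, 5.93 and 7.84 CPM in NICD2 (1.10 ± 0.19), and tropomyosin 1 (TPM1) at 6.61, 10.1 and 9.14 CPM in NICD3, against 15.3, 20.1 and 13.8 CPM in NICD2 (-0.93 ± 0.20). Among the 11 tested genes of epithelial-mesenchymal transition, 3 were higher (27.3%) and 2 lower (18.2%). For lower members the count was 0 without NICD3 replicate 1 or 2 or NICD2 replicate 2 or 3. The higher ones included S100A4 and LOXL2, which crosslinks collagen (0.76 ± 0.13). Vimentin (VIM) averaged 2.19 ± 0.0647 CPM in NICD3 and 1.84 ± 0.238 CPM in NICD2 (SD, n = 3 each; adjusted p = 0.628), under its EV mean of 21.7 ± 0.295 CPM. Among matrix genes COL6A3 was higher (0.95 ± 0.17), and COL12A1 (-1.01 ± 0.18) and CCN2, a target of YAP and TGF-beta (-0.79 ± 0.15), were lower. The receptor kinase gene AXL stood at 66.04, 58.4 and 61.7 CPM in the NICD3 libraries, against 20.4, 20.3 and 22.4 CPM in the NICD2 libraries (1.56 ± 0.11, adjusted p = 3.61e-07). Of the TGF-beta pathway itself, the receptor gene TGFBR1 (-0.55 ± 0.12) and the signal transducer SMAD3 (61.7, 65.2 and 64.1 CPM in NICD3, against 95.3, 109.9 and 95.5 CPM in NICD2, -0.65 ± 0.13) were lower.

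The immediate early genes that differed were mostly lower in NICD3. Of 24 immediate early genes, which respond to growth factors within minutes, 7 were lower (29.2%) and 1 higher (4.2%), with a median of -0.39. All 8 calls held in every alternative. EGR1 stood at 23.5, 22.4 and 25.1 CPM in the NICD3 libraries, against 47.1, 48.5 and 50.6 CPM in the NICD2 libraries (-1.04 ± 0.07, adjusted p = 3.33e-07), and both groups were under the EV mean of 118 ± 7.68 CPM. KLF6, a zinc finger factor, stood at 32.3, 34.4 and 37.7 CPM in the NICD3 libraries, against 72.3, 77.8 and 76.6 CPM in the NICD2 libraries (-1.12 ± 0.09), and its relative KLF2 at 31.9, 30.8 and 31.9 CPM in NICD3, against 55.9, 55.6 and 57.8 CPM in NICD2 (-0.84 ± 0.10). NR4A2, FOS and JUNB were lower by differences of -1.57 ± 0.23, -1.04 ± 0.23 and -0.43 ± 0.07, and the FOS relative FOSL2 was higher (0.61 ± 0.11). MYC stood at 61.2, 80.2 and 87.5 CPM in the NICD3 libraries, against 139.9, 210.0 and 132 CPM in the NICD2 libraries (-1.06 ± 0.23, adjusted p = 0.00715), with EV at 179 ± 16.2 CPM. NICD2 replicate 2 was the highest of the 6. Of 33 genes of the MYC network and ribosome biogenesis, 8 were lower (24.2%) and 1 higher (3%), with 2 and 1 of these held in every alternative. The lower count was 3 without NICD3 replicate 1 or 2 or NICD2 replicate 2, and 5 without any of the other libraries. The MYC antagonist MXI1 was lower (-0.58 ± 0.09), and MXD3, of the same family, was higher (0.68 ± 0.12).

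Cell-cycle regulators split in the same comparison. CDK6, a kinase that works with D cyclins, stood at 44.5, 53.5 and 56.9 CPM in the NICD3 libraries, against 103, 110.3 and 102 CPM in the NICD2 libraries (-1.04 ± 0.10, adjusted p = 6.15e-06). CCND1 and the inhibitor genes CDKN1A and CDKN2C (0.53 ± 0.11) were higher, and CDKN2B was lower. Among WNT-related genes, RNF43, a ubiquitin ligase that removes WNT receptors from the surface, stood at 0.189, 0.951 and 0.847 CPM in the NICD3 libraries, against 5.07, 4.48 and 5.23 CPM in the NICD2 libraries (-3.04 ± 0.42, adjusted p = 0.000197). NICD3 replicate 1 was lower than the other NICD3 libraries, and all were below the EV mean of 8.35 ± 0.836 CPM. The WNT inhibitor gene NKD1 (-0.64 ± 0.15) and the transcription factor gene TCF7L2 (-0.33 ± 0.06) were lower, and the receptor PTK7 was higher at 87.9, 83.1 and 86.3 CPM in NICD3, against 40.9, 42.4 and 40.1 CPM in NICD2 (1.06 ± 0.09). The list of 20 had 3 higher (15%) and 4 lower (20%) members, against 8.23% and 6.8% of all genes tested. The ERK phosphatase gene DUSP6 was lower (-0.53 ± 0.11). NRG1, a ligand of the ERBB receptors, was higher at 145, 134 and 146 CPM in NICD3, against 84.4, 94.8 and 86.9 CPM in NICD2 (0.68 ± 0.11). H2AX, a histone variant gene of the DNA damage response, averaged 399 ± 67.2 CPM in NICD3 and 199 ± 32.1 CPM in NICD2 (1.00 ± 0.16). Others with many reads were the spermidine acetyltransferase gene SAT1, lower at 118, 123 and 128 CPM in NICD3, against 292, 281 and 278 CPM in NICD2, and the ubiquitin ligase gene MID1, higher at 173, 177 and 177 CPM in NICD3, against 74.1, 80.1 and 74.2 CPM in NICD2. IGFBP6, a binding protein for insulin-like growth factor 2, averaged 164 ± 17.8 CPM in NICD3 and 71.5 ± 12.2 CPM in NICD2 (1.21 ± 0.17).

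**Figure D4:**
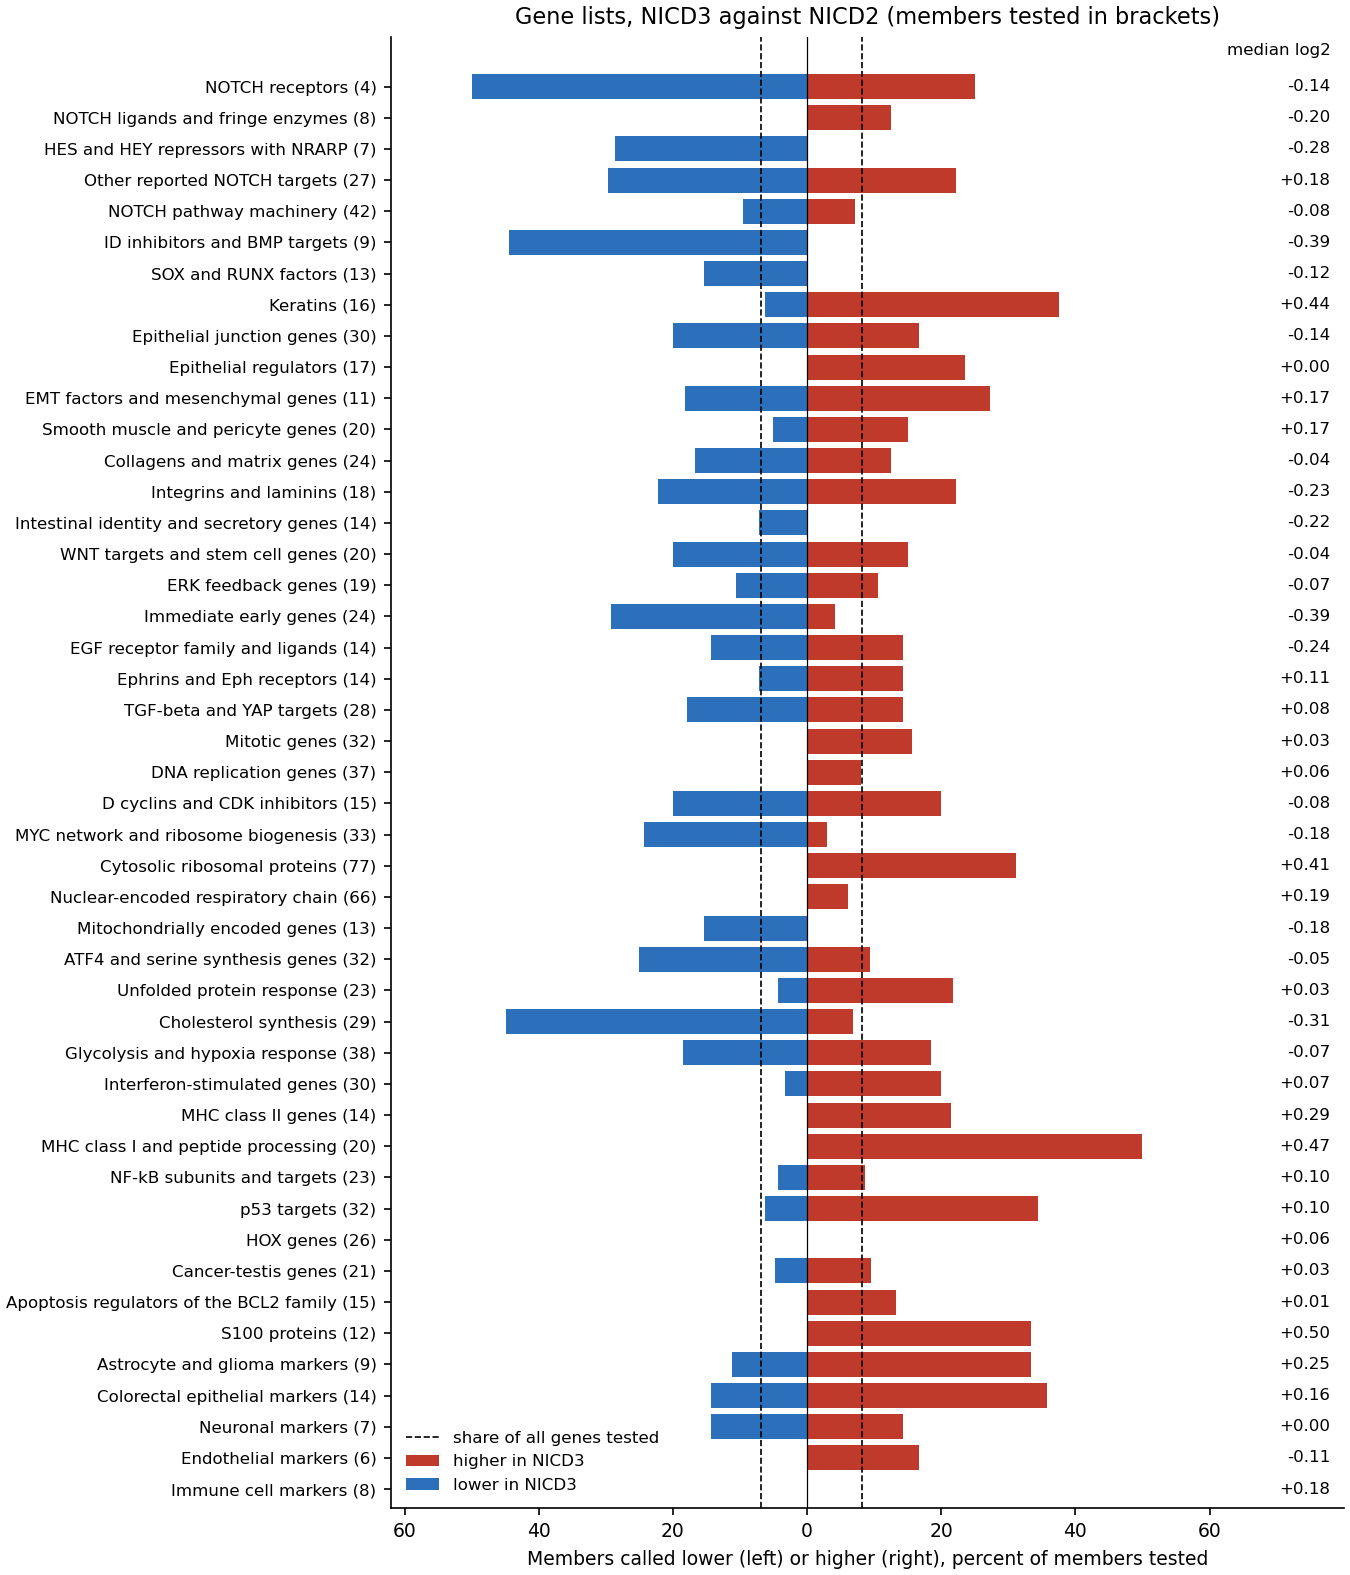
Percent of the tested members of 46 gene lists called higher (red, right) or lower (blue, left) in NICD3 than in NICD2, with the median log2 difference at the right. Dashed lines mark the shares over all genes tested, 8.23% higher and 6.8% lower, and lists differ in size as given in brackets.

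The called antigen presentation genes were higher in NICD3. Of 20 tested genes of MHC class I and peptide processing, 10 were higher (50%), with a median of 0.47. This count was 6 without NICD3 replicate 1 or without NICD2 replicate 2, and 5 members held in every alternative. For lower members, limma with or without voom weights gave a count of 0, as did an unadjusted p of 0.05. HLA-E, a ligand of natural killer cell receptors, stood at 115, 106 and 101 CPM in the NICD3 libraries, against 54.1, 50.03 and 54.8 CPM in the NICD2 libraries (1.02 ± 0.09, adjusted p = 1.99e-06). PSMB9, a subunit of the immunoproteasome, stood at 3.97, 4.08 and 3.43 CPM in NICD3, against 1.60, 1.29 and 1.43 CPM in NICD2 (1.38 ± 0.19). HLA-B stood at 321, 278 and 269 CPM in NICD3, against 199, 167 and 204 CPM in NICD2 (0.61 ± 0.12), HLA-F was higher by 0.70 ± 0.13 and the proteasome activator gene PSME1 by 0.50 ± 0.09. The class II genes HLA-DPB1 (1.02 ± 0.15) and HLA-DRB1 (0.70 ± 0.14) were higher too, 2 of the 3 (21.4%) called higher among 14 tested. For lower class II members limma gave a count of 0, with 1 under voom weights and 1 at an unadjusted p of 0.05. HLA genes are alike and variable, so their reads can be misplaced. Of 30 interferon-stimulated genes 6 were higher (20%) and 1 lower (3.3%). The antiviral membrane proteins IFITM2 (95.9, 73.4 and 77.1 CPM in NICD3, against 24.4, 23.4 and 28.8 CPM in NICD2, 1.68 ± 0.12) and IFITM3 (0.52 ± 0.11), which are near copies of each other, were higher, with IFI35 (0.79 ± 0.14) and IFI6 (0.69 ± 0.15). OASL was lower (-1.12 ± 0.18). The defining markers of immune cells MS4A1, LYZ and CD3D had 3 reads or fewer in either group, and the 13 immune markers in the table, 8 of them above the filter, summed to 7.44 to 8.02 CPM in NICD3 and 7.55 to 8.08 in NICD2.

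The cholesterol synthesis genes that differed were mostly lower in NICD3. Of 29 tested members 13 were lower (44.8%) and 2 higher (6.9%), with a median of -0.31. The lower count was 9 to 12 when 1 library was left out and 16 with the GC trend removed, and 8 members held in every alternative. The higher count was 1 without NICD3 replicate 1 or NICD2 replicate 2. HMGCS1, which makes the precursor of mevalonate, stood at 23.7, 28.3 and 29.6 CPM in the NICD3 libraries, against 49.8, 77.3 and 49.4 CPM in the NICD2 libraries (-1.08 ± 0.19, adjusted p = 0.00127). NICD2 replicate 2 was the highest. INSIG1, which holds the sterol sensor in the endoplasmic reticulum, stood at 39.5, 38.01 and 36.1 CPM in the NICD3 libraries, against 65.6, 66.8 and 65.4 CPM in the NICD2 libraries (-0.80 ± 0.08), with the NICD2 libraries close to the EV mean of 66.3 ± 4.52 CPM. Lanosterol synthase (LSS) stood at 49.5, 49.5 and 49.5 CPM in NICD3, against 80.9, 87.6 and 85.8 CPM in NICD2 (-0.77 ± 0.07). The enzyme genes IDI1 (-0.78 ± 0.14), MSMO1 (-0.67 ± 0.08), MVK (-0.53 ± 0.10) and FDFT1 (-0.43 ± 0.08) were lower as well.

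**Figure D5:**
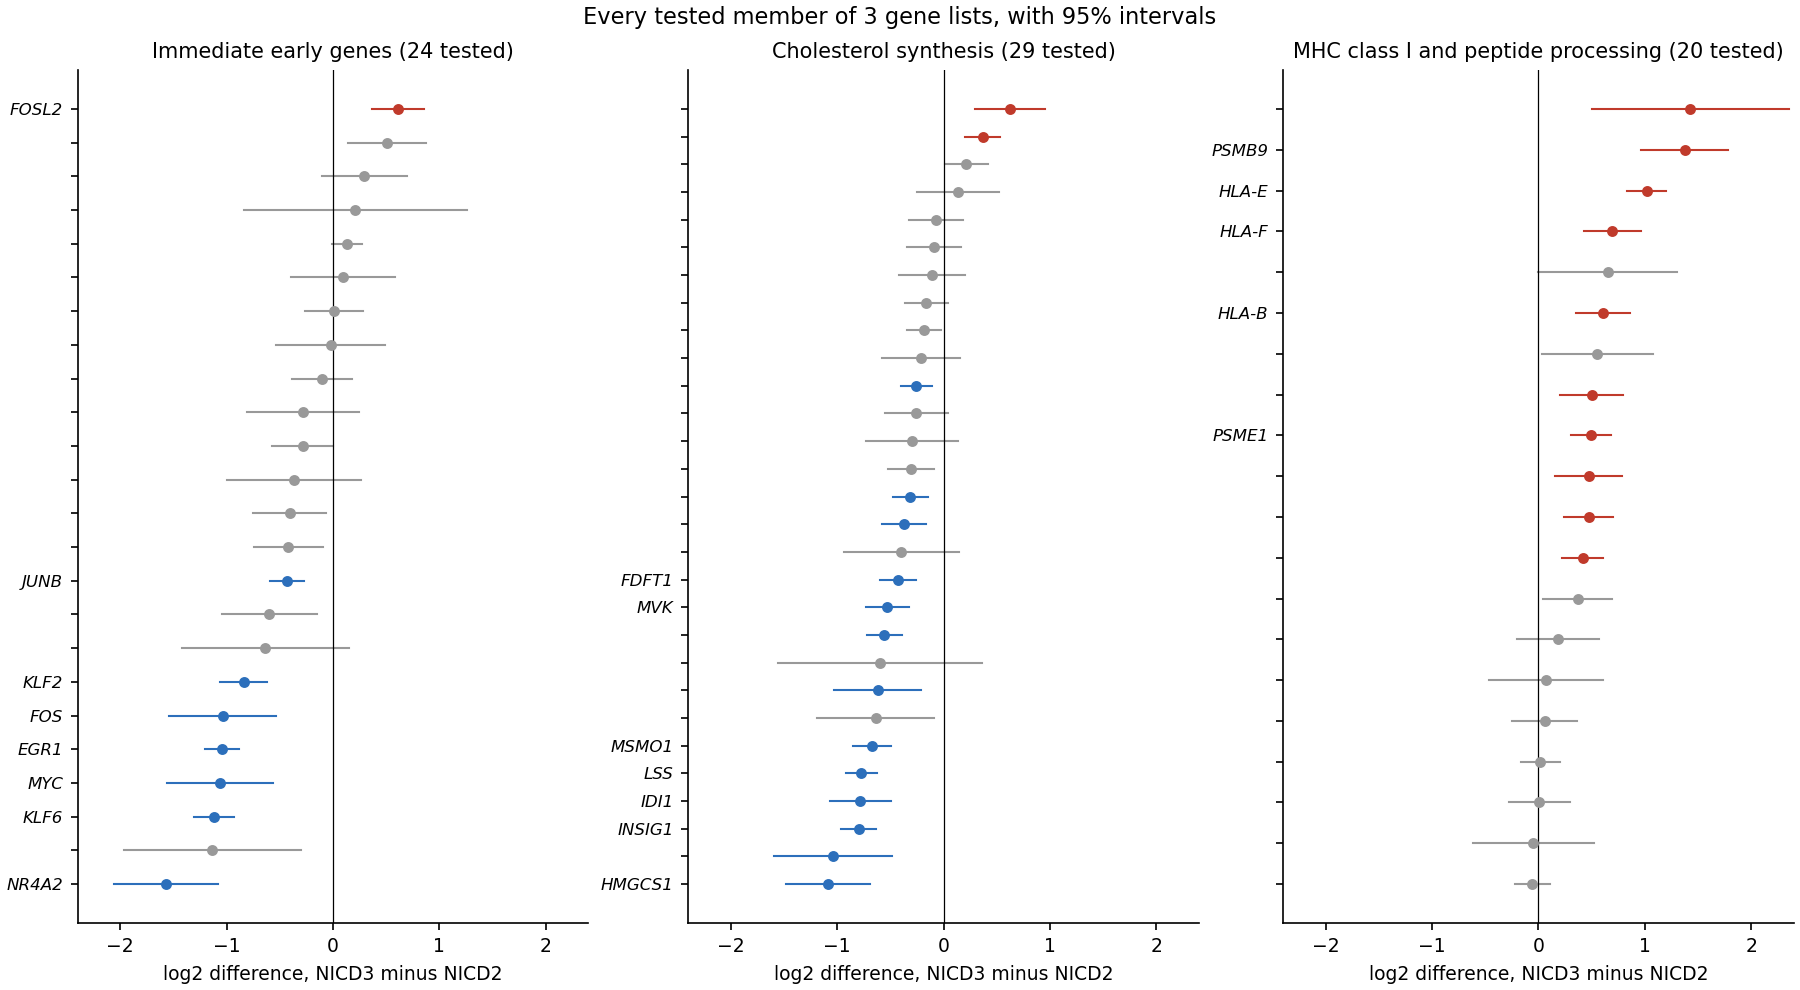
Log2 difference between NICD3 and NICD2 (horizontal axis, points, with 95% intervals) for every tested member of 3 lists, with names for genes described in the text. Of the immediate early genes 7 lie lower and 1 higher at an adjusted p under 0.05 (blue and red), of the cholesterol genes 13 and 2, and of the MHC class I genes 10 lie higher.

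The stress and nutrient lists held opposite members. Of 32 genes of the ATF4 response and serine synthesis, 8 were lower (25%) and 3 higher (9.4%). ATF4, its central factor, stood at 292, 299 and 316 CPM in the NICD3 libraries, against 375, 363 and 386 CPM in the NICD2 libraries (-0.31 ± 0.07, adjusted p = 0.00790). Its targets DDIT3 (13.03, 16.4 and 15.9 CPM in NICD3, against 26.1, 26.3 and 24.9 CPM in NICD2, -0.78 ± 0.12), CHAC1 (-0.63 ± 0.11) and STC2 (43.1, 47.7 and 46.8 CPM in NICD3, against 77.1, 87.6 and 78.2 CPM in NICD2, -0.82 ± 0.07) were lower, as were the amino acid transporter gene SLC38A2 (-0.71 ± 0.10) and VEGFA (-0.65 ± 0.14). PHGDH, the entry enzyme of serine synthesis, was higher at 175, 142 and 145 CPM in NICD3, against 101, 92.2 and 100.5 CPM in NICD2 (0.65 ± 0.09), as was SESN2 (0.91 ± 0.12). Of 23 genes of the unfolded protein response, 5 were higher (21.7%) and 1 lower (4.3%), against 8.23% and 6.8% of all genes tested. The higher count was 1 without NICD3 replicate 1 or NICD2 replicate 2, 2 without NICD3 replicate 2, and 3 without NICD3 replicate 3 or NICD2 replicate 1. The ER degradation factor HERPUD1 was lower (-0.51 ± 0.08) and the chaperone gene DNAJC3 higher (0.58 ± 0.13). Of 38 genes of glycolysis and the hypoxia response 7 were higher and 7 lower (18.4% each). Both counts were 3 without NICD3 replicate 1 or NICD2 replicate 2. The lower count was also 3 without NICD3 replicate 2. The glucose transporter gene SLC2A3 stood at 18.3, 19.8 and 19.6 CPM in the NICD3 libraries, against 4.81, 5.04 and 5.57 CPM in the NICD2 libraries (1.89 ± 0.14, adjusted p = 4.09e-07), and ADM was higher too (0.92 ± 0.15). The spans of SLC2A3, DDIT3 and MVK overlap NECAP1, MARS1 and MMAB, which were not called. Hexokinase genes were opposed, with HK1 higher (0.63 ± 0.12) and HK2 lower (-0.61 ± 0.12).

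Of 77 tested cytosolic ribosomal protein genes 24 were higher (31.2%), the median was 0.41 and all 77 differences were above 0 (75 with library totals). Limma, with or without voom weights, and an unadjusted p of 0.05 gave a count of 0 lower members. The higher count depended on single libraries, at 5 without NICD3 replicate 1, 6 without NICD2 replicate 2, 11 without NICD2 replicate 1, and 13 without NICD3 replicate 2 or NICD2 replicate 3. It was 33 with the GC trend removed and 38 with the replicate block. RPS25 (0.76 ± 0.16), RPS27 (0.64 ± 0.14), RPL13A (0.60 ± 0.13), RPL23A (0.50 ± 0.11) and RPL41 (0.49 ± 0.10) were the 5 that held in every alternative. RPL13A stood at 4464, 3647 and 3673 CPM in NICD3, against 2787, 2249 and 2745 CPM in NICD2. Ribosomal protein genes have many processed copies, and RPS25 overlaps TRAPPC4, which was higher as well (0.80, adjusted p = 0.000204). Of 66 nuclear-encoded respiratory chain genes 4 were higher (6.1%), a share under the 8.23% of all genes tested. Among them were the ATP synthase subunits ATP5MG (471, 391 and 406 CPM in NICD3, against 261, 221 and 254 CPM in NICD2, 0.78 ± 0.11) and ATP5MC2 (0.52 ± 0.11). The higher count of this list was 2 when any 1 library was left out. Of 32 p53 targets 11 were higher (34.4%) and 2 lower (6.2%), with a median of 0.10, and without NICD3 replicate 1 or NICD2 replicate 2 the counts were 5 and 0. Without NICD2 replicate 3 the lower count was 1. BAX, which permeabilises mitochondria, stood at 255, 243 and 229.7 CPM in NICD3, against 165, 130.5 and 167 CPM in NICD2 (0.66 ± 0.13), and TP53I3 (0.60 ± 0.08), CDKN1A and SESN2 also held in every alternative.

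Markers of other cell types were called in small numbers, and the lists differed. Of 9 tested astrocyte and glioma markers 3 were higher (33.3%) and 1 lower (11.1%). Their median was 0.25, and 8 of the 9 differences were above 0. Besides ALDH1L1 and CD44, the filament gene GFAP was higher at 2.83, 2.63 and 2.43 CPM in NICD3, against 1.07, 0.888 and 0.986 CPM in NICD2 (1.38 ± 0.26), whereas the glutamate transporter gene SLC1A3 was lower at 22.6, 23.4 and 25.2 CPM in NICD3, against 46.4, 56.7 and 47.4 CPM in NICD2 (-1.07 ± 0.15). The 20 astrocyte and glioma markers in the table, with AQP4, OLIG2 and SOX2 at 0, summed to 154 to 165 CPM in NICD3, 121 to 128 in NICD2 and 127 to 130.2 in EV. Of 7 tested neuronal markers 1 was higher and 1 lower (14.3% each). The higher one was the enolase gene ENO2, which averaged 67.3 CPM in NICD3 and 47.7 CPM in NICD2, and 0 were higher without NICD3 replicate 1 or NICD2 replicate 2. The synaptic gene SYT1 was lower at 2.96, 3.35 and 2.80 CPM in NICD3, against 5.54, 7.75 and 6.81 CPM in NICD2 (-1.12 ± 0.18) and the endothelial adhesion gene ESAM higher at 9.07, 7.66 and 9.14 CPM in NICD3, against 5.21, 4.48 and 5.72 CPM in NICD2 (0.74 ± 0.14), while the endothelial marker CDH5 had no read in the 6 libraries. The 14 neuronal markers in the table, 7 above the filter, summed to 74.5 to 77.4 CPM in NICD3 and 58.1 to 64.0 in NICD2, and the 14 endothelial ones, 6 above it, to 23.7 to 25.8 in NICD3 and 20.8 to 23.7 in NICD2. Their part in the results was not tested. Of 12 tested S100 genes 4 were higher (33.3%), with a median of 0.50, among them S100A4, S100A5 and S100A14 (14.98, 13.9 and 12.6 CPM in NICD3, against 7.28, 5.21 and 6.21 CPM in NICD2, 1.15 ± 0.19). Their lower count was 0 with limma, with voom weights and at an unadjusted p of 0.05, but 1 with library totals and 2 with the GC trend removed.

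Other lists differed in how many of their members were called. Of 32 mitotic genes 5 were higher (15.6%), but the count was 0 without NICD3 replicate 1 and 2 without NICD2 replicate 2 or 3. Of 37 DNA replication genes 3 were higher (8.1%, against 8.23% of all genes tested), and that count was 1 when any library but NICD3 replicate 3 was left out. Of 26 HOX genes, which give cells their position along the body axis, limma called 0 in either direction. With voom weights 1 was higher, with the GC trend removed 1 was higher and 1 lower, with library totals 1 was lower, and at an unadjusted p of 0.05, 3 were higher and 1 lower. Of 13 mitochondrially encoded genes 2 were lower (15.4%), with 0 without NICD3 replicate 1, 4 without NICD3 replicate 2 and 1 without NICD2 replicate 2. The 9 genes of ID inhibitors and BMP targets held 4 lower members (44.4%), among them ID2 and ID3. Their lower count was 2 without NICD3 replicate 2 or 3 or NICD2 replicate 2 or 3. Of 28 genes of TGF-beta and YAP targets 4 were higher (14.3%) and 5 lower (17.9%), against 8.23% and 6.8% of all genes tested. Of 14 ephrins and Eph receptors 2 were higher (14.3%) and 1, EFNB2, was lower (7.1%). The 2 higher calls were lost with the GC trend removed or with library totals. Of 23 genes of NF-kB 2 were higher (8.7%) and 1 lower (4.3%), against 8.23% and 6.8% of all genes tested. When any 1 library was left out at most 1 was higher and 0 were lower.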

How the data were processed

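RNA from 15 libraries was prepared with oligo-dT beads, a TruSeq kit and 16 cycles of PCR, per the labels' protocols, and kits of that generation do not mark strand. TopHat2 2.0.6, HTSeq and GRCh37 are named in the submitters' processing notes, and their settings are not given in the sources used here. The authors deposited log2(raw count + 1) per gene, per the file headers, for 31352 Ensembl genes. Undoing the log gave whole counts within 0.001 for 100% of values. From these deposited log2 values, counts were recovered and scaled by TMM factors. The filter for testing was 0.548 CPM, or 10 reads in a library of median depth, in 3 libraries, with 15 reads in all. Log2(scaled count + 1), where 1 equals 0.0544 CPM, was fitted in limma 3.58.1 (R 4.3.3) with 1 mean for each of the 5 groups and a trended, robust prior (statmod 1.5.0). Near that level, fold changes are understated. The test was made on the log scale of the deposited table, and no count model was fitted to the recovered counts. The contrast was NICD3 minus NICD2, and p-values are two-sided. In the 15 libraries 11630195 to 27704492 reads were counted. Counts from PCR-amplified reads are not independent molecules.

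NICD4 replicate 1 is in neither group compared, but it enters the estimate of spread, the filter, the TMM scaling and the GC trend removal. Its source and genotype labels say NICD3 and its title NICD4. Members and the 46 gene lists were chosen with earlier results of these data known. Named genes were list members and NOTCH1 to NOTCH4, the 20 genes highest and the 20 lowest by log2 difference among those called with a symbol, a mean log2 CPM of at least 1 and groups that do not overlap, the 10 called genes of highest mean CPM that differ at least 2-fold, and up to 10 in each direction with at least 5 CPM in 1 group and under 0.5 in the other. The first list of rises holds the gene found by the last rule too. Some genes of these lists are not reported here. Transcript GC, from the GENCODE transcripts, was available for 14737 tested genes (97.5%). The 18 alternatives were other scaling, filters, pseudocounts (0.5 and 5), priors, voom weights, the 6 libraries alone, a replicate block, GC trend removal, that removal with the block, leaving out each of the 6 libraries, and the added sum of NICD2 replicates 1 and 3.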

Additional observations from a re-analysis of the deposited data

How the results depend on the processing

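Over 18 alternatives and 216 results, 3715 of 3888 alternative values were counted as unchanged. Genes had to keep direction and call, counts of genes to stay within 1.5 times, and list medians to move by less than the pooled SD of the libraries. Of the 157 called genes among these results, 154 were called in every alternative, against 38.4% of all 2273. The total therefore describes the results chosen and not all genes. The higher count of 1245 was 829 with library totals alone and the lower count of 1028 was 631 without the filter. Leaving out 1 library gave 680 to 961 higher and 510 to 746 lower genes (224 to 297 and 123 to 163 at least 2-fold), and the sum of NICD2 replicates 1 and 3, chosen after seeing the data, gave 918 and 675. Between 1179 and 1655 of the 2273 calls were made again with 1 library left out, and 1787 with the GC trend removed, where 1 of the 2273 had the other sign. With 1 library left out HES1 ranged from -1.14 to -1.06, NRARP from -1.15 to -1.12 and NOTCH2 from -0.48 to -0.42, all called. NOTCH3, not called in any setting, ranged from -0.15 to 0.054 with 1 library left out, with a positive sign at 0.034 without NICD2 replicate 1, 0.054 without NICD2 replicate 3 and 0.044 with these summed. HEYL, not called either, turned to -0.053 with library totals and -0.071 with the GC trend removed, with or without the block. Same-numbered NICD3 and NICD2 libraries deviated together at r = 0.17, 0.17 and -0.20, and not every library correlated best with its own number. Deviations from a mean of 3 libraries depend on each other, so these values cannot tell whether the numbers pair the libraries. With the replicate block 1411 genes were higher and 1099 lower, and with the block and the GC trend removed 1367 and 1148; NOTCH1 missed the threshold under the block (adjusted p = 0.058). The cause of these shifts was not tested. Genes near 0.0544 CPM have understated differences at this depth.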
